A study of Mus musculus with 17 samples.

Results

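The mouse Ube2 genes encode ubiquitin-conjugating enzymes, and they were followed here in whole blood 24 h after total-body X-rays. Members were all genes whose annotated symbol begins with Ube2, 1 such gene being left out by the selection rule. Each gene was read from its brightest probe set, by mean level over the 17 arrays. This gave 32 genes, read by 80 probe sets, of 18193 genes and 45101 probe sets on the array. The rule itself uses symbols and mean levels and no difference between groups. All mice were C57BL/6JJcl females, 8 weeks old at exposure; 5 control mice received 0 Gy, and groups of 4 received 0.5, 1.0 or 3.0 Gy. The labels name no transgene or drug in any group. The labels call the arrays biological replicates, 1 mouse per array. Ube2m was not analysed here, and neither was Ube2l3, which 4 probe sets name only together with other genes.

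Ubiquitin is a small protein that cells attach to other proteins as a signal for destruction, for relocation or for the assembly of repair and signalling complexes. An activating enzyme (E1) loads it, a conjugating enzyme (E2) carries it on a cysteine, and a ligase (E3) picks the substrate, while the E2 often sets which kind of chain is built. Some Ube2 proteins carry relatives of ubiquitin instead, such as NEDD8, which switches on cullin ligases, and ISG15, which interferon induces. In blood the system clears organelles and ribosomes from maturing red cells, and in every nucleated cell it serves the response to damaged DNA.

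Levels are log2 values from robust multi-array averaging (RMA), so a difference of 1 is a 2-fold change. A gene entered the tests when its probe set lay above its own array's median in at least 4 arrays, and a change was called at an adjusted p under 0.05 in a limma fit over 12696 genes. Of the 32 Ube2 genes, 28 were tested. Ube2d2b, Ube2e2, Ube2t and Ube2u lay below the median on every array, with levels no higher than 3.09 on any of them, so nothing is said of their change. Ube2t is the E2 of the Fanconi anaemia pathway of DNA crosslink repair. Of the 28, Ube2v2 was above the median in 10 arrays, Ube2d1 in 14 and Ube2q2 in 16, and the other 25 in all 17. Arrays of a group had correlations of 0.973 to 0.993 across probe sets, and array medians lay between 3.47 and 3.57. The whole-blood label was borne out by markers of its cells, with control means of 13.90 for Alas2 of red cell precursors, 12.28 for the platelet chemokine Pf4 and 8.07 for the T cell gene Cd3e.

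Most Ube2 transcripts were lower at 3.0 Gy, and the number of falls grew with dose. Of 28 tested genes, 5 fell at 0.5 Gy, 12 fell and 1 rose at 1.0 Gy, and 20 fell and 3 rose at 3.0 Gy. Falls of at least 2-fold were called for 0 genes at 0.5 Gy, for 2 at 1.0 Gy (Ube2b and Ube2f) and for 11 at 3.0 Gy (Ube2h, Ube2b, Ube2f, Ube2v2, Ube2d3, Ube2d1, Ube2o, Ube2e3, Ube2a, Ube2n and Ube2e1). Among all genes tested, 10.2% were called at 0.5 Gy, 17.3% at 1.0 Gy and 49.1% at 3.0 Gy. Calls in the upward direction alone made up 5.24% of all genes at 0.5 Gy and 8.8% at 1.0 Gy. In the downward direction the background was 5% at 0.5 Gy, 8.49% at 1.0 Gy and 29.2% at 3.0 Gy, against 17.9%, 42.9% and 71.4% of the tested Ube2 genes. For falls of at least 2-fold it was 0.228%, 0.906% and 11.1% at the same doses. Among the 11 Ube2 genes at 3.0 Gy, Ube2v2 and Ube2d1 were dim at that dose. They passed the filter through the other groups, where they were higher.

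The arrays of a dose lay wholly below those of control for 5 Ube2 genes at 0.5 Gy, 10 at 1.0 Gy and 18 at 3.0 Gy, against 4.54%, 6.38% and 22.9% of all genes. They lay wholly above control for 0, 1 and 3 Ube2 genes, against 6.66%, 7.88% and 14.2% of all genes.

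The median log2 change of the tested Ube2 genes was -0.17 at 0.5 Gy, -0.28 at 1.0 Gy and -0.71 at 3.0 Gy, while the median over all genes was -0.02, -0.04 and 0.04. Group means fell at every step from control through 3.0 Gy for 13 Ube2 genes, a pattern shown by 11.2% of all genes, and rose at every step for Ube2v1 alone, a pattern of 12.1% of all genes. The 3 contrasts share the control arrays, and those between doses share arrays with them. An F test for a change at any dose called 23 Ube2 genes (82.1%), against 48.2% of all genes. In whole blood fewer cells of a type and less RNA per cell cannot be told apart. RMA makes the arrays largely alike in distribution, so each change is relative to the other transcripts. The likeness was not full. The 75th percentile of an array was 4.77 to 4.83 at 3.0 Gy, against 4.87 to 4.95 in control. It was 4.87 to 4.95 at 0.5 Gy and 4.86 to 4.94 at 1.0 Gy.

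**Figure D1:**
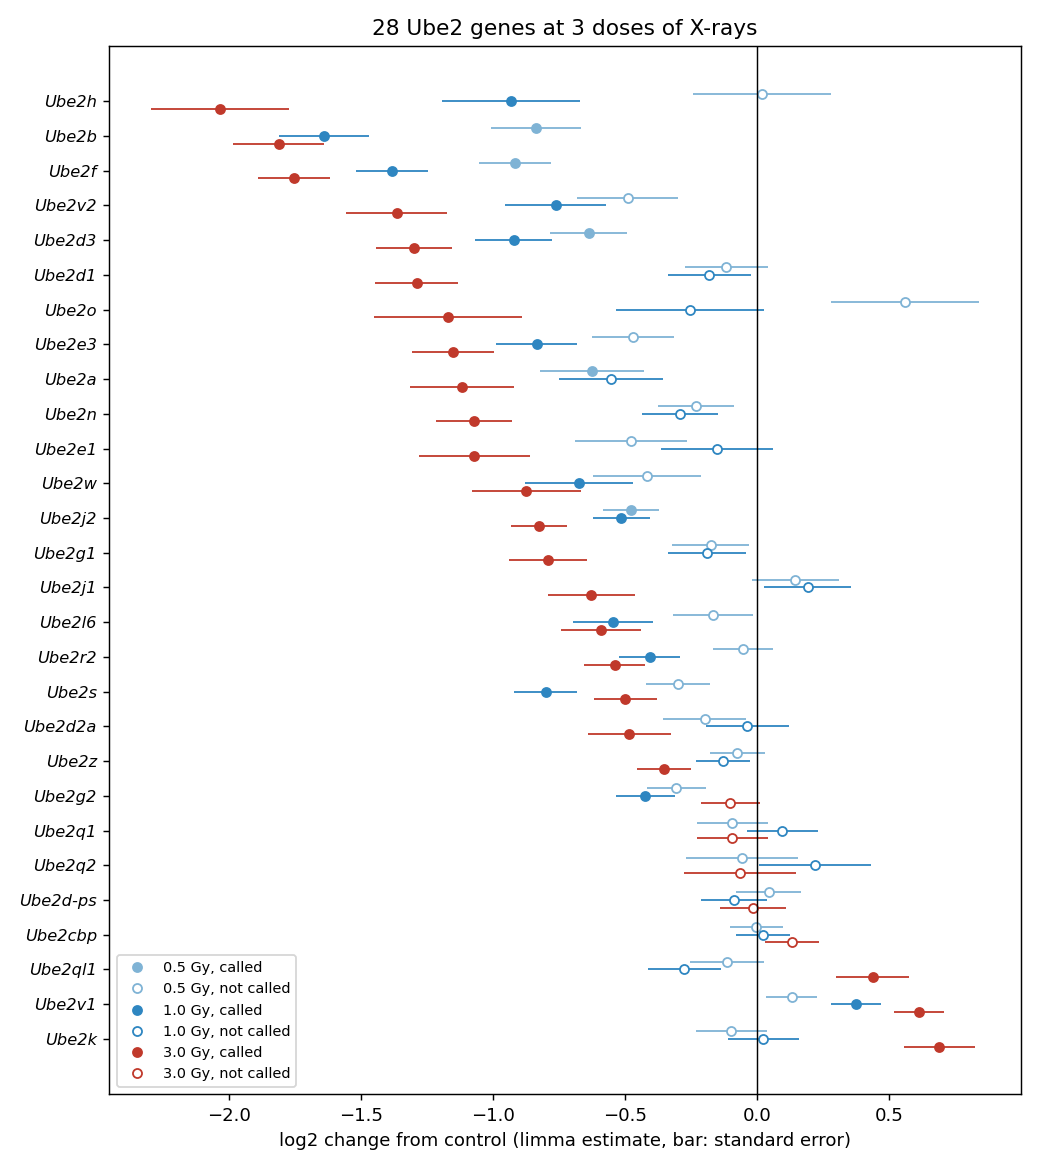
Change of each of the 28 tested Ube2 genes from control, on the x axis as limma's log2 change with its standard error, at 0.5, 1.0 and 3.0 Gy; filled points have an adjusted p under 0.05, open points do not. Genes are ordered by the change at 3.0 Gy, from Ube2h at -2.03 to Ube2k at 0.69, and 24 of the 28 points at 3.0 Gy lie left of 0.

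Several other measures moved with dose, and their part in the Ube2 changes was not tested except where a value is given. Of 19 tested red cell and reticulocyte markers, 6 fell at 0.5 Gy, 9 at 1.0 Gy and 13 at 3.0 Gy, where 3 rose. Their mean level per array was 8.13 to 8.87 in control, 7.91 to 8.18 at 0.5 Gy, 7.42 to 7.88 at 1.0 Gy and 7.31 to 7.63 at 3.0 Gy. B cell markers were called lower for 1, 1 and 15 of 16 at the 3 doses, T cell markers for 2, 4 and 12 of 16, and all 23 platelet markers were called higher at each dose. Among all genes, 5%, 8.49% and 29.2% fell and 5.24%, 8.8% and 20% rose at the 3 doses. Mean B cell marker levels ranged over 7.54 to 8.22 in control, 7.07 to 7.88 at 0.5 Gy, 7.18 to 7.87 at 1.0 Gy and 4.80 to 6.15 at 3.0 Gy, where replicate 2 was the array at 6.15 and the other 3 lay between 4.80 and 4.83. Mean T cell marker levels ranged over 6.90 to 7.60, 6.79 to 7.22, 6.52 to 7.25 and 5.83 to 6.06 in the same order of groups, and mean platelet marker levels over 8.39 to 8.94, 10.01 to 10.21, 10.29 to 10.64 and 10.09 to 10.94. Of 12 neutrophil markers, 1 rose and 1 fell at 0.5 Gy, 2 rose and 3 fell at 1.0 Gy, and 9 rose at 3.0 Gy, where their mean level was 7.90 to 8.72, against 7.19 to 7.74 in control. Of 12 monocyte markers, 3 fell at 0.5 Gy, 1 rose and 1 fell at 1.0 Gy, and 6 fell at 3.0 Gy. Of 11 NK and cytotoxic cell markers, 1 fell at 0.5 Gy, 2 rose and 1 fell at 1.0 Gy, and 3 fell at 3.0 Gy. Of 20 p53 target genes, 3 rose and 1 fell at 0.5 Gy, and 8 rose and 2 fell at 1.0 Gy. At 3.0 Gy 6 of the p53 targets rose and 3 fell. RMA levels have no 0, so no marker could be read as absent. Without replicate 2 of the 3.0 Gy group, 22 Ube2 genes were called at that dose, 19 lower and 3 higher.

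**Figure D2:**
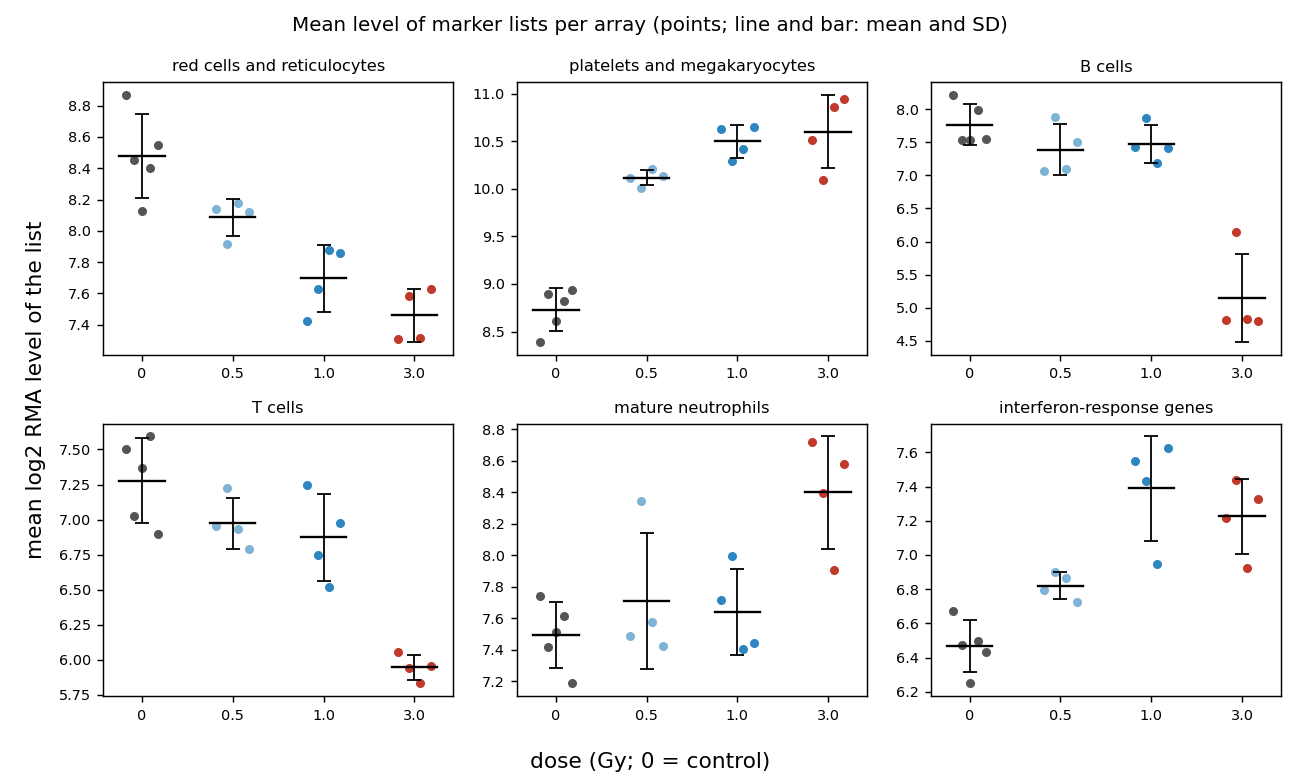
Mean log2 RMA level of 6 marker lists per array (y axis) against dose in Gy (x axis); points are arrays, lines and bars the mean and SD of 5 control arrays and 4 arrays per dose. The red cell list falls over the doses, the platelet list lies higher at each dose than in control, and the B and T cell lists lie apart from the other groups at 3.0 Gy.

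The level of control probe sets for 18S ribosomal RNA also differed between groups, in another order than the dose. Its mean was 10.52 ± 0.49 in control (SD, n = 5), 12.69 ± 0.77 at 0.5 Gy, 13.28 ± 0.28 at 1.0 Gy and 10.68 ± 0.14 at 3.0 Gy (SD, n = 4 each). With this level as a covariate in the fit, the number of Ube2 genes called at 1.0 Gy was 6, with 4.77% of all genes called, against 13 and 17.3% without it. For 0.5 Gy the number was 6 (4.39% of all genes), against 5 (10.2%) without the covariate. For 3.0 Gy it was 23 with the covariate (49.4%) and 23 without (49.1%). The 18S level was 11.76 to 13.43 at 0.5 Gy and 12.89 to 13.52 at 1.0 Gy, against 9.82 to 11.18 in control, with no overlap, so that 18S level and these doses cannot be told apart.

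Ube2h and Ube2o are the Ube2 genes best known from red cell maturation. Ube2h is the E2 of the CTLH ligase complex and accumulates in maturing erythroid cells, and Ube2o acts as E2 and E3 in one and clears ribosomes from mouse reticulocytes. Ube2h levels were 11.17, 10.76, 9.78, 10.14 and 10.19 in control, 10.65, 10.23, 10.58 and 10.25 at 0.5 Gy, 9.29, 9.63, 9.48 and 9.50 at 1.0 Gy, and 7.88, 9.15, 7.83 and 8.63 at 3.0 Gy. The 0.5 Gy arrays lay within the control range, those of 1.0 Gy lay below every control array, and those of 3.0 Gy lay below every array of 1.0 Gy. Ube2h fell 4.10-fold at 3.0 Gy (log2 change -2.03 ± 0.26, limma estimate ± SE, adjusted p = 3.63e-06), the largest fall among the Ube2 genes in this fit, and 1.91-fold at 1.0 Gy (adjusted p = 0.0173). It did not pass the test at 0.5 Gy (log2 change 0.02, adjusted p = 0.982).

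The other 3 probe sets of Ube2h also fell at 3.0 Gy, by 0.51 to 0.61 on the log2 scale, and did not pass at 1.0 Gy. The call at 1.0 Gy therefore rests on the brightest probe set. It was lost with the mean of all probe sets, with the 18S covariate and without replicate 1 of the 1.0 Gy group, with adjusted p between 0.0561 and 0.948. Averaged over its probe sets, Ube2h fell by 0.93 at 3.0 Gy.

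Ube2o levels were 10.10, 9.99, 8.43, 8.83 and 8.98 in control, 10.10, 9.64, 10.08 and 9.49 at 0.5 Gy, 8.84, 9.33, 8.92 and 8.95 at 1.0 Gy, and 7.71, 8.46, 7.82 and 8.40 at 3.0 Gy. Control mice were spread widely, with 2 arrays near 10 and 3 between 8.43 and 8.98, and the 3.0 Gy arrays overlapped the lowest of them. Ube2o fell 2.25-fold at 3.0 Gy against control (adjusted p = 0.00196) and 3.32-fold against 0.5 Gy (adjusted p = 0.000236), where the ranges did not overlap. Its changes of 0.56 at 0.5 Gy and -0.25 at 1.0 Gy did not pass (adjusted p = 0.257 and 0.605). At 3.0 Gy the mean red cell marker levels given above were lower than in control. At 0.5 Gy 6 of the red cell markers fell, and neither Ube2h nor Ube2o was called. Whether the marker and Ube2 changes are linked was not tested.

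Of 4 genes picked from the CTLH complex, Rmnd5a fell by 1.14 and Wdr26 by 0.91 on the log2 scale at 3.0 Gy (adjusted p = 7.92e-05 and 0.00131). Gid4 rose by 0.39 there (adjusted p = 0.0166) and Maea did not pass (log2 change 0.20, adjusted p = 0.135). None of the 4 was called at 0.5 or 1.0 Gy. Among all genes, 29.2% fell and 20% rose at 3.0 Gy. These partners were named after their values were seen.

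The promoters of Ube2h are shown because it had the largest fall and because GATA factors are regulators of red cell genes. The windows run from 250 bases before to 50 bases after the annotated start, 5′ to 3′, from RefSeq on GRCm38.p6, both on the minus strand. Capitals mark AGATAA, a sequence that such factors bind, searched on both strands. The upstream start lies at chr6:30304490-30304789 and the downstream start at chr6:30243754-30244053.
Ube2h upstream start: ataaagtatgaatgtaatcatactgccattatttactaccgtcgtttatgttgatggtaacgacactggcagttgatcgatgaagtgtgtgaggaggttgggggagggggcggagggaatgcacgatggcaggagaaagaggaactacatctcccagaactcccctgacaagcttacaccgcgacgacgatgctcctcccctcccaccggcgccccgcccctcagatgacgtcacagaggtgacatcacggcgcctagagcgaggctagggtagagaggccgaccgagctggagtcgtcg
Ube2h downstream start: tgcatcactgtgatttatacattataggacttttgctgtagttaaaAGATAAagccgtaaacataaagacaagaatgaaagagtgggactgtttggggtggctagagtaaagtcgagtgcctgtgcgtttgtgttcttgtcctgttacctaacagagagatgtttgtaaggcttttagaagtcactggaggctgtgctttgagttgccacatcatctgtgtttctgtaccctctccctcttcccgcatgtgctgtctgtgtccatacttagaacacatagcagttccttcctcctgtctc
The motif begins 204 bases before the downstream start and has no match in the upstream window. It was found in 11.2% of 32851 mouse promoter windows of this length, and in a window of 12.7% of 27025 genes. Of the 26 Ube2 genes with a window, only Ube2h held it. A match describes these letters, and the data do not say which start was used.

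Ube2a and Ube2b are the mammalian forms of yeast Rad6. With Rad18 they mark the replication clamp PCNA for bypass of DNA damage, and with Rnf20 and Rnf40 they ubiquitinate histone H2B. Ube2b levels were 11.74, 11.13, 11.26, 11.73 and 11.72 in control, 10.59, 10.57, 10.88 and 10.68 at 0.5 Gy, 9.36, 9.92, 10.34 and 9.88 at 1.0 Gy, and 9.87, 9.61, 9.50 and 9.84 at 3.0 Gy. Every irradiated array lay below every control array, and the groups of 1.0 and 3.0 Gy overlapped. Ube2b fell 1.79-fold at 0.5 Gy (adjusted p = 0.00329), 3.12-fold at 1.0 Gy (adjusted p = 1.27e-06) and 3.51-fold at 3.0 Gy (adjusted p = 1.22e-07), and 3.0 and 1.0 Gy did not differ by the test (log2 difference -0.17 ± 0.18, adjusted p = 0.448). All 3 of its tested probe sets fell at 3.0 Gy, by 0.97 to 1.81. At the lower doses 2 of them fell, and the third changed by -0.25 at 0.5 Gy and -0.06 at 1.0 Gy without passing (adjusted p = 0.694 and 0.916).

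Ube2a levels were 7.29, 6.42, 6.94, 7.37 and 7.12 in control, 5.96, 6.95, 6.17 and 6.53 at 0.5 Gy, 6.60, 6.60, 6.10 and 6.61 at 1.0 Gy, and 6.09, 5.96, 5.89 and 5.70 at 3.0 Gy. Only the 3.0 Gy arrays lay wholly below control. Ube2a fell 2.17-fold at 3.0 Gy (adjusted p = 0.000115), and both of its probe sets fell there by 1.11 to 1.12. The call at 0.5 Gy was marginal (log2 change -0.63, adjusted p = 0.0497) and was lost in 19 alternative fits, with adjusted p between 0.0503 and 0.208. At 1.0 Gy the change of -0.55 did not pass (adjusted p = 0.0616). Among their partners, Rnf20 fell by 1.51 at 3.0 Gy (adjusted p = 1.82e-05), while Rad18 and Rnf40 were not called at any dose. Rad18 changed by 0.07 and Rnf40 by -0.18 at 3.0 Gy (adjusted p = 0.673 and 0.173). These partners were also named after their values were seen.

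Ube2n builds chains through lysine 63 of ubiquitin, and needs a partner without its own active cysteine. Ube2v2 is the partner in DNA damage tolerance and Ube2v1 the one linked to signalling to NF-kB. In these samples Ube2n and Ube2v2 fell and Ube2v1 rose. Ube2n levels were 6.11, 5.69, 5.90, 6.37 and 5.85 in control, 5.39, 6.12, 5.71 and 5.79 at 0.5 Gy, 5.67, 5.73, 5.61 and 5.76 at 1.0 Gy, and 4.82, 5.01, 4.73 and 5.10 at 3.0 Gy. The first 3 groups overlapped and the 3.0 Gy arrays lay below all of them. Ube2n fell 2.10-fold at 3.0 Gy (adjusted p = 5.98e-06) and was not called at 0.5 or 1.0 Gy (adjusted p = 0.387 and 0.191). Its second probe set, near the array median, changed by 0.04 at 3.0 Gy, and the mean of both fell by 0.52. Rnf8, the ligase that calls Ube2n to DNA breaks, fell by 0.80 at 3.0 Gy (adjusted p = 1.53e-05).

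Ube2v2 levels were 4.46, 3.82, 4.19, 4.68 and 4.49 in control, 3.35, 4.36, 3.84 and 3.80 at 0.5 Gy, 3.29, 3.63, 3.47 and 3.87 at 1.0 Gy, and 3.15, 3.12, 2.64 and 2.94 at 3.0 Gy. The 3.0 Gy arrays lay below every other array, and 1.0 Gy overlapped control at a single array. Ube2v2 fell 1.70-fold at 1.0 Gy (adjusted p = 0.00825) and 2.58-fold at 3.0 Gy (adjusted p = 9.42e-06). It is a dim probe set, above the array median in 10 arrays, and RMA understates the fold of such sets. At 3.0 Gy its levels of 2.64 to 3.15 lay below the array medians of 3.54 to 3.57. The probe set passed the filter through the other groups, where it was higher. Its other 3 probe sets were too dim to be tested, and the mean of all 4 fell by 0.42 at 3.0 Gy.

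Ube2v1 went the other way. Its levels were 7.51, 7.59, 7.50, 7.66 and 7.48 in control, 7.76, 7.71, 7.56 and 7.69 at 0.5 Gy, 8.07, 8.00, 7.81 and 7.82 at 1.0 Gy, and 8.17, 8.00, 8.32 and 8.15 at 3.0 Gy. All arrays of 1.0 and 3.0 Gy lay above all control arrays. Ube2v1 rose by 0.38 on the log2 scale at 1.0 Gy (adjusted p = 0.00926) and 1.53-fold at 3.0 Gy (adjusted p = 3.14e-05), and its second probe set rose by 0.61 at 3.0 Gy as well. The call at 1.0 Gy was lost with repeated quantile normalization and with the 18S covariate (adjusted p = 0.0956 and 0.265). Its probe set is of a type that can bind related transcripts, and it lies outside the 14 genes chosen by size and was described after its values were seen.

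**Figure D3:**
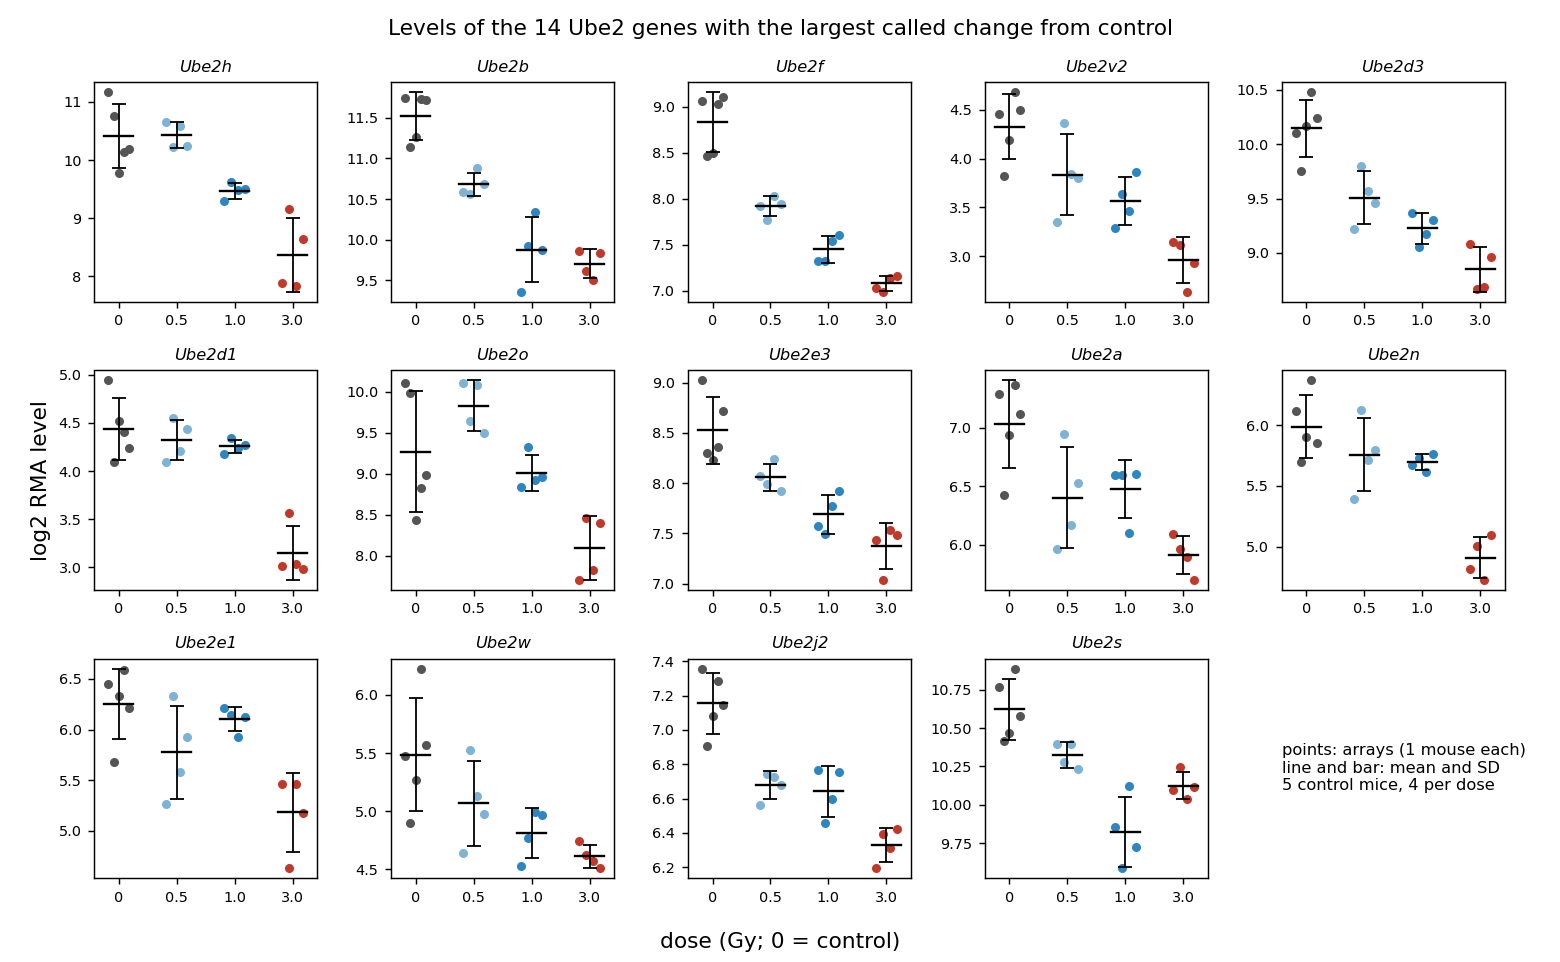
Log2 RMA level (y axis) against dose in Gy (x axis) for the 14 Ube2 genes with the largest called change from control, ordered by its size; points are arrays, lines and bars the mean and SD of 5 control arrays and 4 arrays per dose. The 3.0 Gy arrays lie below every control array in all panels but that of Ube2o.

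The D, E and W enzymes are broad initiators that place a first ubiquitin with many ligases, Ube2w doing so at the amino terminus of its substrates. All 6 tested coding genes of this group fell at 3.0 Gy, namely Ube2d1, Ube2d2a, Ube2d3, Ube2e1, Ube2e3 and Ube2w. Ube2d-ps, which RefSeq lists as a non-coding RNA, did not pass (log2 change -0.02, adjusted p = 0.926).

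Ube2d3 levels were 10.10, 9.75, 10.17, 10.48 and 10.24 in control, 9.22, 9.80, 9.57 and 9.45 at 0.5 Gy, 9.37, 9.05, 9.18 and 9.30 at 1.0 Gy, and 9.08, 8.67, 8.68 and 8.96 at 3.0 Gy. Only 1 irradiated array, at 0.5 Gy, reached the control range. Ube2d3 fell 1.56-fold, 1.90-fold and 2.46-fold at the 3 doses (adjusted p = 0.00706, 0.000115 and 7.04e-07). Of its 7 probe sets, 4 fell at 3.0 Gy and the others changed by -0.62 to -0.23 without passing. With a probe set of the single-target type in its place, no dose passed.

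Ube2d1 passed the test at 3.0 Gy alone. Its levels were 4.94, 4.09, 4.52, 4.40 and 4.24 in control, 4.09, 4.55, 4.20 and 4.44 at 0.5 Gy, 4.18, 4.34, 4.24 and 4.27 at 1.0 Gy, and 3.02, 3.56, 3.03 and 2.98 at 3.0 Gy. The 3.0 Gy arrays lay below all 13 others, with replicate 2 the highest of them. The probe set is dim, above the array median in 14 arrays. At 3.0 Gy its levels lay near or below the array medians of 3.54 to 3.57. It passed the filter through the other groups, where it was higher. Ube2d1 fell 2.44-fold at 3.0 Gy against control (adjusted p = 1.97e-06) and 2.15-fold against 1.0 Gy (adjusted p = 8.15e-05). Ube2d2a ranged over 7.42 to 8.01 at 3.0 Gy, against 8.05 to 8.58 in control, and fell by 0.49 (adjusted p = 0.0157), a call that was lost without replicate 2 of that group (adjusted p = 0.0705), and its other 3 tested probe sets did not pass there. One of them rose by 0.50 at 1.0 Gy (adjusted p = 0.0101 in the fit of probe sets), where the standing probe set changed by -0.04.

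Ube2e3 levels were 9.02, 8.30, 8.23, 8.36 and 8.72 in control, 8.07, 7.99, 8.24 and 7.92 at 0.5 Gy, 7.57, 7.50, 7.77 and 7.92 at 1.0 Gy, and 7.44, 7.04, 7.53 and 7.49 at 3.0 Gy. The groups stepped down with dose, with neighbours overlapping. It fell 1.78-fold at 1.0 Gy and 2.22-fold at 3.0 Gy (adjusted p = 0.00064 and 5.89e-06), and at 0.5 Gy the change of -0.47 did not pass (adjusted p = 0.0618). The call at 1.0 Gy was lost with the 18S covariate (adjusted p = 0.291). Ube2e1 levels were 6.45, 5.68, 6.34, 6.59 and 6.21 in control, 5.26, 6.33, 5.58 and 5.93 at 0.5 Gy, 6.21, 6.14, 5.93 and 6.13 at 1.0 Gy, and 5.46, 4.63, 5.46 and 5.17 at 3.0 Gy. Ube2e1 had no such steps, and fell 2.10-fold at 3.0 Gy alone (adjusted p = 0.000347).

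Ube2w levels were 5.48, 4.89, 5.27, 6.23 and 5.57 in control, 4.64, 5.52, 5.13 and 4.98 at 0.5 Gy, 4.53, 4.77, 4.99 and 4.97 at 1.0 Gy, and 4.75, 4.62, 4.57 and 4.51 at 3.0 Gy. The lowest control array lay within the range of 1.0 Gy and above that of 3.0 Gy. Ube2w fell 1.83-fold at 3.0 Gy (adjusted p = 0.00163) and 1.60-fold at 1.0 Gy (adjusted p = 0.0279). The call at 1.0 Gy was lost in 6 alternative fits, among them those without control replicate 4 or 5 and without 1.0 Gy replicate 1 or 2, with adjusted p between 0.0517 and 0.101. A second, dim probe set of Ube2w changed by 0.32 at 3.0 Gy (adjusted p = 0.054), opposite in sign.

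**Figure D4:**
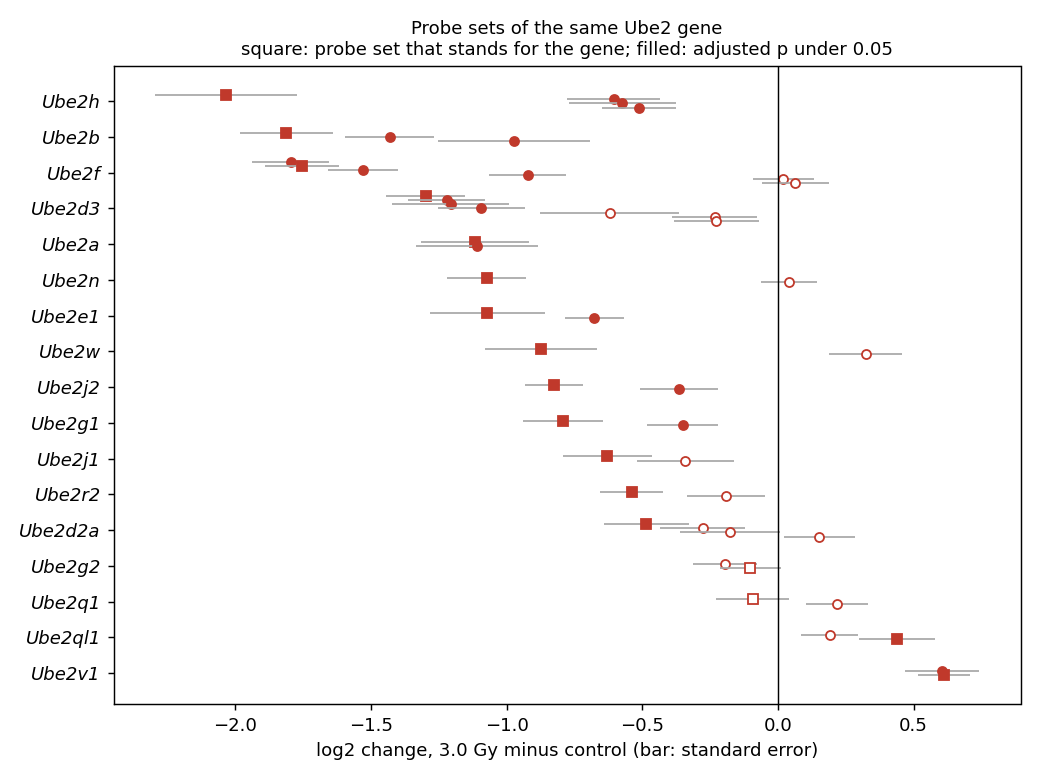
Log2 change at 3.0 Gy minus control with its standard error (x axis) for each tested probe set of the 17 Ube2 genes that have more than 1; squares are the probe set that stands for the gene, circles its others, filled where the adjusted p is under 0.05. For 7 genes every probe set was called the same way, for 12 all changes had one sign, and no gene had calls in both directions.

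Ube2f hands NEDD8 to cullin 5 together with the ring protein Rnf7. Its levels were 9.07, 8.46, 8.50, 9.03 and 9.11 in control, 7.93, 7.77, 8.03 and 7.94 at 0.5 Gy, 7.32, 7.33, 7.54 and 7.61 at 1.0 Gy, and 7.03, 6.99, 7.14 and 7.16 at 3.0 Gy. No 2 groups overlapped, so that the 4 groups were in the order of dose. Ube2f fell 1.89-fold at 0.5 Gy, 2.61-fold at 1.0 Gy and 3.37-fold at 3.0 Gy (adjusted p = 0.000172, 7.37e-07 and 2.06e-08), the smallest p of any Ube2 gene at each dose in this fit. The step between 1.0 and 0.5 Gy did not pass (log2 difference -0.47 ± 0.14, adjusted p = 0.428), and that between 3.0 and 1.0 Gy did (-0.37 ± 0.14, adjusted p = 0.0487).

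Its probe sets were not alike. Of 6, 4 fell at 3.0 Gy, by 0.92 to 1.80, and the remaining pair changed by 0.020 and 0.064. That pair is of the type designed for a single target and has lower control means, of 3.52 and 5.78, while those that fell are of types shared by transcripts of a gene or by related sequences. With the brighter of the pair standing for the gene, Ube2f changed by 0.064 at 3.0 Gy and no dose was called (adjusted p = 0.721, 0.408 and 0.676 at 0.5, 1.0 and 3.0 Gy). Rnf7 fell by 0.41 at 1.0 Gy and 0.58 at 3.0 Gy (adjusted p = 0.0247 and 0.000612), and Nedd8 itself rose by 0.67 at 3.0 Gy (adjusted p = 0.00273), beside a fall of 1.07 for Nae1, a subunit of the NEDD8 E1 (adjusted p = 0.000107). Rnf7 was named after its value was seen.

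Ube2l6 carries ISG15, a ubiquitin-like protein that interferon induces. Uba7 is its E1, Herc6 a mouse ligase for it, Trim25 a further ligase and Usp18 the enzyme that takes it off again. Ube2l6 levels were 10.36, 10.22, 10.31, 10.07 and 10.36 in control, 10.03, 9.90, 10.30 and 10.17 at 0.5 Gy, 9.73, 9.32, 9.85 and 9.98 at 1.0 Gy, and 9.67, 10.01, 9.22 and 9.79 at 3.0 Gy. The arrays of 1.0 and 3.0 Gy lay below every control array. Ube2l6 fell 1.46-fold at 1.0 Gy (adjusted p = 0.0167), a call lost without replicate 2 of that group, with the replicate block and with the 18S covariate (adjusted p between 0.0508 and 0.546), and 1.51-fold at 3.0 Gy (adjusted p = 0.00336). It lies outside the 14 genes chosen by size and was described after its values were seen.

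Of 5 genes listed for the ISG15 route, 4 had a probe set with 1 symbol and were tested, and Isg15 itself is not among these 4. Uba7 and Usp18 rose. Uba7 levels were 8.12, 8.00, 8.32, 8.59 and 8.64 in control, 8.74, 8.72, 8.81 and 9.01 at 0.5 Gy, 9.06, 9.02, 9.22 and 9.12 at 1.0 Gy, and 9.64, 9.17, 10.39 and 10.17 at 3.0 Gy. Uba7 rose 1.70-fold at 1.0 Gy and 2.83-fold at 3.0 Gy (adjusted p = 0.00753 and 3.15e-06). At 0.5 Gy its log2 change of 0.48 did not pass (adjusted p = 0.13). Usp18 levels were 5.01, 4.54, 4.71, 4.96 and 5.07 in control, 5.78, 5.61, 5.84 and 5.58 at 0.5 Gy, 7.24, 6.63, 5.84 and 7.49 at 1.0 Gy, and 6.83, 6.87, 6.62 and 6.79 at 3.0 Gy. Every irradiated array of Usp18 and Uba7 lay above every control array. Usp18 rose by 0.85, 1.94 and 1.92 on the log2 scale at the 3 doses (adjusted p = 0.0201, 4.15e-06 and 1.37e-06). Trim25 fell by 0.74 at 3.0 Gy (adjusted p = 0.0381), where its range of 5.77 to 7.25 overlapped that of control, 6.60 to 7.77. The probe set of Trim25 is of a type that can bind related transcripts. Herc6, named after its values were seen, was not called at any dose (adjusted p = 0.919, 0.701 and 0.322). Of 28 interferon-response genes tested, 6 rose at 0.5 Gy, 20 at 1.0 Gy and 14 at 3.0 Gy, while 1 fell at each. Among all genes, 5.24%, 8.8% and 20% rose and 5%, 8.49% and 29.2% fell at these doses.

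**Figure D5:**
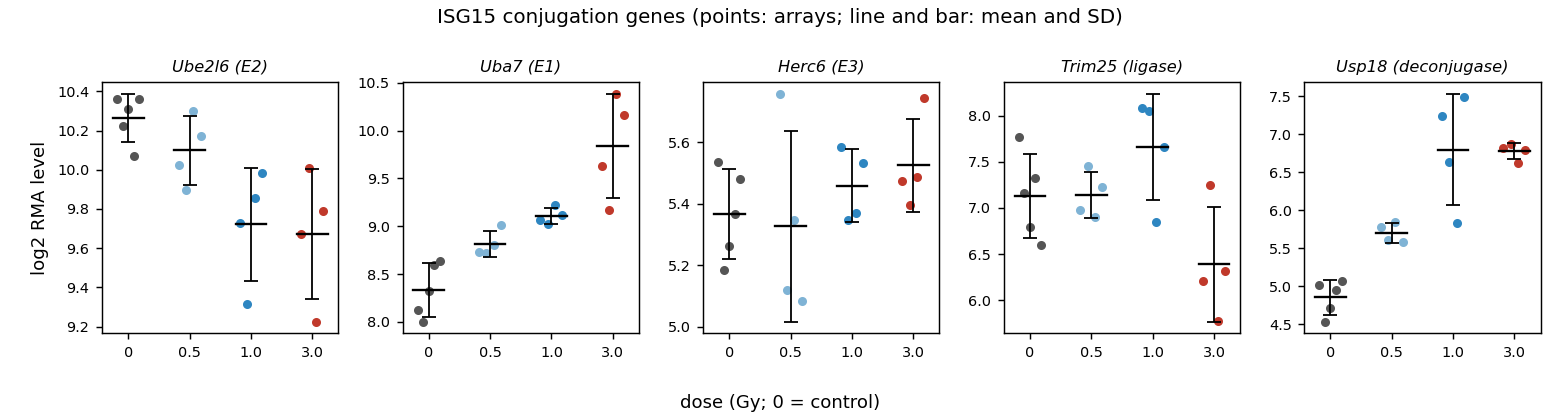
Log2 RMA level (y axis) against dose in Gy (x axis) of Ube2l6, the E2 for ISG15, beside Uba7, Herc6, Trim25 and Usp18 of the same route; points are arrays, lines and bars the mean and SD of 5 control arrays and 4 arrays per dose. Ube2l6 falls at 1.0 and 3.0 Gy while Uba7 and Usp18 lie above all control arrays at each dose, though Uba7 was not called at 0.5 Gy.

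The promoter window of Ube2l6 is shown because interferon genes often carry a response element there. It lies at chr2:84798578-84798877 on the plus strand of GRCm38.p6, from RefSeq, 5′ to 3′, with no part in capitals because neither motif searched was found in it.
Ube2l6: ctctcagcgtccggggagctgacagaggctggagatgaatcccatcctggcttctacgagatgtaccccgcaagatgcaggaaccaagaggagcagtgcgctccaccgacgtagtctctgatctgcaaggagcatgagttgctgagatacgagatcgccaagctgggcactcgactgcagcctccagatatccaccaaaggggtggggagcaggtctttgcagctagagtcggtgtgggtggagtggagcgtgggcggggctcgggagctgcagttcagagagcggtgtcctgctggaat
The consensus of the interferon-stimulated response element, searched on both strands, matched 0.502% of the 32851 windows, a window of 0.57% of the 27025 genes, and 0 of the 26 Ube2 genes with a window. That says only that these letters are not in these windows.

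Ube2s, Ube2r2, Ube2g1, Ube2g2 and Ube2k extend chains or serve cullin ligases and the anaphase-promoting complex. Ube2s adds lysine 11 links for that complex. Its levels were 10.77, 10.42, 10.47, 10.89 and 10.58 in control, 10.39, 10.28, 10.39 and 10.23 at 0.5 Gy, 9.85, 9.59, 10.12 and 9.73 at 1.0 Gy, and 10.10, 10.25, 10.04 and 10.12 at 3.0 Gy. Every irradiated array lay below the control range, and 1.0 Gy had the lowest group mean. Ube2s fell 1.74-fold at 1.0 Gy (adjusted p = 6.93e-05) and 1.41-fold at 3.0 Gy (adjusted p = 0.00194), and 3.0 and 1.0 Gy did not differ by the test (log2 difference 0.30 ± 0.13, adjusted p = 0.0641). With the 18S covariate the call of Ube2s at 1.0 Gy was lost (adjusted p = 0.176). Its probe set can bind related transcripts, and with the mean of it and a second, untested dim set the call at 3.0 Gy was lost (adjusted p = 0.696).

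Ube2r2, an E2 of SCF ligases, ranged over 9.23 to 9.54 at 3.0 Gy, against 9.60 to 10.23 in control. It fell by 0.41 at 1.0 Gy and 0.54 at 3.0 Gy (adjusted p = 0.0181 and 0.000708), and the call at 1.0 Gy was lost in 6 alternative fits, among them those with the mean of its probe sets, with the replicate block and without replicate 1 of that group (adjusted p between 0.0512 and 0.901). Its second probe set, of the single-target type, changed by -0.19 at 3.0 Gy and did not pass, and with it the call at 3.0 Gy was lost (adjusted p = 0.276). Ube2g1, which extends lysine 48 chains, ranged over 6.05 to 6.16 at 3.0 Gy, against 6.58 to 7.21 in control. It fell 1.73-fold at 3.0 Gy (adjusted p = 0.000183), with both probe sets called, and was not called at lower doses. Ube2g2, an E2 for proteins retrieved from the endoplasmic reticulum, ranged over 6.20 to 6.51 at 1.0 Gy, against 6.55 to 7.03 in control. It fell by 0.42 at 1.0 Gy (adjusted p = 0.0114), changed by -0.10 at 3.0 Gy (adjusted p = 0.453), and was higher at 3.0 than at 1.0 Gy (log2 difference 0.32, adjusted p = 0.0382). The call at 1.0 Gy was lost with the 18S covariate (adjusted p = 0.173).

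Ube2k, which can build lysine 48 chains alone, rose. Its levels were 7.04, 6.44, 6.71, 6.73 and 6.69 in control, 6.37, 6.72, 6.67 and 6.74 at 0.5 Gy, 6.73, 6.67, 6.81 and 6.77 at 1.0 Gy, and 7.39, 7.11, 7.79 and 7.36 at 3.0 Gy. The 3.0 Gy arrays lay above all 13 others, and the remaining groups overlapped. Ube2k rose 1.61-fold at 3.0 Gy against control (adjusted p = 0.000297) and 1.59-fold against 1.0 Gy (adjusted p = 0.00149). Of its 5 probe sets, only the one that stands for the gene was tested. Ube2ql1, a less studied member, had levels of 5.40, 5.42, 5.73 and 5.82 at 3.0 Gy, against 5.03, 5.19, 5.03, 5.12 and 5.40 in control. It rose 1.35-fold at 3.0 Gy (adjusted p = 0.0143), a call lost without replicate 4 of that group (adjusted p = 0.0576). Its second probe set changed by 0.19 at 3.0 Gy and was not called. Among all genes 20% rose at 3.0 Gy, against 10.7% of the tested Ube2 genes. Ube2k and Ube2ql1 were described after their values were seen.

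Ube2j1 and Ube2j2 are anchored in the membrane of the endoplasmic reticulum, where they serve the disposal of misfolded proteins. Ube2j2 levels were 7.36, 6.91, 7.08, 7.29 and 7.15 in control, 6.56, 6.75, 6.72 and 6.68 at 0.5 Gy, 6.76, 6.45, 6.59 and 6.76 at 1.0 Gy, and 6.20, 6.39, 6.31 and 6.42 at 3.0 Gy. Every irradiated array lay below every control array, and those of 3.0 Gy below all of the rest. Ube2j2 fell 1.39-fold, 1.43-fold and 1.77-fold at the 3 doses (adjusted p = 0.00654, 0.00183 and 3.83e-06). The calls at 0.5 and 1.0 Gy were lost with a probe set of the single-target type and with the 18S covariate. Ube2j1 was not called at 0.5 or 1.0 Gy, with changes of 0.14 and 0.19, and fell 1.55-fold at 3.0 Gy (adjusted p = 0.00391), where it ranged over 5.16 to 5.49, against 5.55 to 6.29 in control. Its second probe set changed by -0.34 at 3.0 Gy and was not called.

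Of the remaining members, Ube2z, which the E1 Uba6 charges, ranged over 6.63 to 7.01 at 3.0 Gy, against 6.96 to 7.29 in control. It fell by 0.35 at 3.0 Gy (adjusted p = 0.00841), a call lost with the mean of its probe sets and with repeated quantile normalization (adjusted p between 0.264 and 0.44). Ube2q1 and Ube2q2 were not called at any dose, with changes of -0.09 and -0.07 at 3.0 Gy. Neither was Ube2cbp, which shares the name but is not a core E2, with a change of 0.13. The ranges of these 3 genes overlapped between 3.0 Gy and control, at 7.13 to 7.47 against 7.27 to 7.75 for Ube2q1, 3.46 to 4.54 against 3.98 to 4.82 for Ube2q2, and 3.58 to 4.00 against 3.63 to 3.76 for Ube2cbp. The genes lower than control at all 3 doses were Ube2b, Ube2d3, Ube2f and Ube2j2, or 14.3% of the tested Ube2 genes, against 3.81% of all genes. Those called lower at 3.0 Gy and at neither lower dose were Ube2d1, Ube2d2a, Ube2e1, Ube2g1, Ube2j1, Ube2n, Ube2o and Ube2z, or 28.6%, against 22.1% of all genes.

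The doses were also set against each other. Between 1.0 and 0.5 Gy limma called 0 Ube2 genes, against 0.0158% of all genes, and 9 had an unadjusted p under 0.05, of which 8 were lower and 1 higher at 1.0 Gy, against 5.79% of all genes with such a p. The 1.0 Gy arrays nevertheless lay wholly below those of 0.5 Gy for 6 genes, a pattern of 1.97% of all genes, namely Ube2b, Ube2f, Ube2h, Ube2o, Ube2r2 and Ube2s, and wholly above for Ube2v1, a pattern of 2.37%. The differences were -0.80 ± 0.18 for Ube2b (adjusted p = 0.105), -0.95 ± 0.28 for Ube2h (adjusted p = 0.357) and -0.50 ± 0.13 for Ube2s (adjusted p = 0.212). Without replicate 3 of the 1.0 Gy group 2 genes passed, Ube2b and Ube2s, and with only these groups in the fit 1 passed, Ube2h.

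Between 3.0 and 1.0 Gy, 12 Ube2 genes were lower and 3 higher at 3.0 Gy, or 53.6% of those tested against 38.6% of all genes. The lower ones were Ube2a, Ube2d1, Ube2d2a, Ube2e1, Ube2f, Ube2g1, Ube2h, Ube2j1, Ube2j2, Ube2n, Ube2o and Ube2v2, and the higher ones Ube2g2, Ube2k and Ube2ql1. Ube2d1 and Ube2h had the largest differences, of -1.11 ± 0.17 and -1.10 ± 0.28 (adjusted p = 8.15e-05 and 0.00493). Without replicate 3 of the 3.0 Gy group 9 remained called. With the 18S level as a covariate 0 Ube2 genes and 0% of all genes were called, and that level was 10.50 to 10.84 at 3.0 Gy against 12.89 to 13.52 at 1.0 Gy, with no overlap. Group and 18S level cannot be told apart between these doses.

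Between 3.0 and 0.5 Gy, 15 Ube2 genes were lower and 3 higher at 3.0 Gy, or 64.3% of those tested against 33.8% of all genes, of which 20.9% were lower. The arrays of 3.0 Gy lay wholly below those of 0.5 Gy for 14 Ube2 genes, against 20.1% of all genes. Falls of at least 2-fold were called for 3 Ube2 genes, or 10.7%, against 7.21% of all genes. Ube2h was 4.15-fold lower (adjusted p = 3.05e-05), Ube2o 3.32-fold lower and Ube2d1 2.25-fold lower (adjusted p = 4.56e-05). Ube2k (1.73-fold), Ube2ql1 (1.47-fold) and Ube2v1 (1.40-fold) were higher (adjusted p = 0.00036, 0.00739 and 0.00131). With the 18S covariate 2 Ube2 genes and 0.748% of all genes were called.

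Among all genes, 10.2% were called at 0.5 Gy, 17.3% at 1.0 Gy and 49.1% at 3.0 Gy against control. Of 7 tested E1 genes, 0 were called at 0.5 Gy, 1 rose at 1.0 Gy (Uba7), and 2 rose and 2 fell at 3.0 Gy. Those were Uba7 and Atg7, the E1 of autophagy (log2 change 0.61, adjusted p = 0.000126), and Nae1 and Sae1, a subunit of the SUMO E1 (-0.81, adjusted p = 3.36e-05). Of 5 tested modifiers, Fau, a ubiquitin-like protein fused to a ribosomal one, fell at each dose, by 1.08 at 3.0 Gy (adjusted p = 8.28e-06). Sumo3 fell by 0.49 at 3.0 Gy (adjusted p = 0.0071), and Urm1 fell by 0.40 at 1.0 Gy (adjusted p = 0.0103). At 3.0 Gy Urm1 changed by 0.23 without passing (adjusted p = 0.0711), and Nedd8 rose as given above. Between 3.0 and 1.0 Gy, 3 of the 5 modifiers were higher at 3.0 Gy and 0 lower, against 15.9% and 22.7% of all genes. Of 6 tested E2 genes with other names, 1 fell at each dose, Tsg101, an E2 variant of endosomal sorting, by 0.68 at 3.0 Gy (adjusted p = 6.83e-05).

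Of 45 tested ligases and partners of Ube2 enzymes, 6 rose at 0.5 Gy, 6 rose and 3 fell at 1.0 Gy, and 6 rose and 22 fell at 3.0 Gy, where their median log2 change was -0.31. Among all genes, 5.24%, 8.8% and 20% rose and 5%, 8.49% and 29.2% fell at the 3 doses. Birc2 rose by 1.67 at 3.0 Gy (adjusted p = 3.02e-06) and Birc3 fell by 1.87 (adjusted p = 2.02e-07), both ligases of the inhibitor-of-apoptosis family. Ranbp2, a SUMO ligase of the nuclear pore, fell by 1.71 (adjusted p = 3.05e-06), and Marchf6, a ligase of the endoplasmic reticulum, rose by 0.92 (adjusted p = 3.96e-05). Of 22 tested deconjugating enzymes, 1 rose and 12 fell at 3.0 Gy, with a median of -0.50. Usp15 fell by 1.99 (adjusted p = 8.03e-08) and Usp1, which removes ubiquitin from PCNA, by 1.98 (adjusted p = 9.3e-08), and Tnfaip3, a brake on NF-kB signalling, fell by 1.00 (adjusted p = 3.02e-06).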

How the data were processed

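Per the labels' protocols, whole blood went into an RNA-stabilising tube and biotin-labelled complementary RNA was hybridised to 1 Affymetrix mouse array per mouse. The authors deposited log2 values per probe set, and the submitters' processing notes name RMA and R 3.3.2. Which program and settings were used is not given in the sources used here. As a method, RMA pulls dim probe sets towards background and takes out part of a change shared by most transcripts.

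Gene names came from the platform annotation, using probe sets with 1 symbol. The deposited log2 values were fitted with limma 3.58.1 in R 4.3.3 as 4 group means over 17 arrays, with two-sided tests and Benjamini-Hochberg adjustment over 12696 genes whose highest-mean probe set exceeded its array's 50th percentile in at least 4 arrays. The procedure was checked on simulated data. The number of arrays limits the precision, and no scan batch was used here.

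The Ube2 genes, their roles and all gene lists were chosen with earlier results of these data known. Values in every array are given for the 14 called genes with the largest change, and pathway genes are at most the 4 called per list with the smallest p at 3.0 Gy and at 1.0 Gy; genes outside these rules are marked as named after their values were seen. The fit of every probe set as its own feature covered 20445 probe sets, 59 of them of Ube2 genes, and was added after the data were seen. The alternatives concerned the filter, the probe set per gene, normalization, the variance model, the arrays in the fit, a replicate block, an 18S covariate and leaving out each array.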

Additional observations from a re-analysis of the deposited data

Results flagged for a closer look

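Of 112 sets of arrays (28 Ube2 genes in 4 groups), 7 held 1 array far from the rest of its group by Dixon's criterion, which chance meets in about 1 in 20 sets. At 3.0 Gy replicate 2 was the array in 3 of them: it was the highest for Ube2d1, at 3.56 against 2.98 to 3.03 in the other arrays, and the lowest for Ube2d2a, at 7.42 against 7.92 to 8.01, and for Ube2q2, at 3.46 against 4.46 to 4.54. Its B cell marker level was also apart from the others of its group. At 1.0 Gy the lowest array was replicate 3 for Ube2a, at 6.10 against 6.60 to 6.61, replicate 4 for Ube2d-ps, at 3.95 against 4.20 to 4.25, and replicate 1 for Ube2r2, at 9.41 against 9.53 in the others. At 0.5 Gy replicate 2 was the highest for Ube2j1, at 6.43 against 5.98 to 6.00.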

How the results depend on the processing

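With the arrays left out in turn, the number of Ube2 genes called was 4 to 7 at 0.5 Gy, 10 to 14 at 1.0 Gy and 22 to 23 at 3.0 Gy against control, 0 to 2 between 1.0 and 0.5 Gy, 9 to 16 between 3.0 and 1.0 Gy, 16 to 19 between 3.0 and 0.5 Gy, and 22 to 24 for any dose. With single-target probe sets where a gene has one, 1 was called at 0.5 Gy and 8 at 1.0 Gy. That fit lost the 3.0 Gy calls of Ube2d2a, Ube2d3, Ube2f and Ube2r2. For it, the fits without an array and the fit with a replicate block, no share of all genes is given. Whether a changed count there is particular to the Ube2 genes was not tested. With the 18S covariate the count against control was 6 for 0.5 Gy (4.39% of all genes), 6 for 1.0 Gy (4.77%) and 23 for 3.0 Gy (49.4%). Between 3.0 and 1.0 Gy it was 0, where 0% of all genes passed. Between 3.0 and 0.5 Gy it was 2, with 0.748% of all genes called. With only the 2 groups compared in the fit, 1 was called between 1.0 and 0.5 Gy. Among single-gene results called in the main fit, signs turned in 9, none past the threshold there (adjusted p 0.158 to 0.917). With single-target probe sets, Ube2d2a changed by 0.15 and Ube2f by 0.064 at 3.0 Gy against control, and Ube2f by 0.23 against 1.0 Gy and 0.17 against 0.5 Gy. With the 18S covariate, at 3.0 against 1.0 Gy, Ube2a differed by 0.64, Ube2e1 by 0.17 and Ube2v2 by 0.68, and at 3.0 against 0.5 Gy, Ube2e1 by 0.25 and Ube2v2 by 0.12. Outside the results called in the main fit, Ube2d2a changed by -0.04 at 1.0 Gy in that fit. It rose by 0.50 with single-target probe sets (adjusted p = 0.00958). The causes were not tested.

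Deviations from the group mean were compared between arrays of different groups. Same-numbered arrays had r of -0.45 to 0.49 over 24 pairs (median 0.067, 11 above 0.1). Differently numbered arrays had r of -0.63 to 0.61 over 84 pairs (median -0.025, 29 above 0.1). Of 16 arrays, 7 correlated best with their own number. Whether the numbers pair the arrays cannot be settled from these values. With the replicate number as a block, 4 Ube2 genes were called at 0.5 Gy, 10 at 1.0 Gy, 23 at 3.0 Gy, 0 between 1.0 and 0.5 Gy, 15 between 3.0 and 1.0 Gy, 16 between 3.0 and 0.5 Gy and 23 for any dose.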
